A study of Sus scrofa with 15 samples.

Results

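Tissue macrophages of backfat were followed through 9 genes chosen by name: CSF1R, CSF1, CD163, MRC1, CD68, CD14, AIF1, LYVE1 and MARCO. They are 9 of the 30477 genes in the count files, and all 9 were among the 14918 genes kept for testing. The samples were backfat biopsies of 15 Iberian pigs, 1 RNA-seq library per pig and 5 libraries per diet. The diets were a standard compound feed (C, the control), a compound feed made with dry olive pulp (DOP), and a compound feed without by-product given together with free access to a silage of wet crude olive cake and barley straw (WCOC). The pigs were about a year old when sampled, at the end of the growing period. By the paper, the compound feeds of DOP and WCOC were given at a smaller share of free energy intake than the control feed. The 5 pigs per diet were picked from larger groups, mainly by how much RNA they gave and how good it was. Each diet was fed in 1 pen, so diet, pen and feeding level cannot be told apart. The intake of single pigs is not given in the sources used here. The question the design addresses is whether feeding either olive by-product was accompanied by a different level of these genes in fat.

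Resident macrophages of adipose tissue lie between the fat cells and along small vessels, where they take up dead cells, debris and haemoglobin. Their survival in most tissues depends on CSF1R, a receptor tyrosine kinase of the cell surface, which is bound by the growth factor CSF1 and by a separate ligand, IL34. Subsets are told apart by surface proteins: scavenger and lectin receptors such as CD163 and MRC1 mark resident cells, LYVE1 marks those beside vessels, and lysosomal CD68 is found in almost all of them. The RNA here came from whole tissue, so fewer macrophages and less of a transcript per macrophage cannot be told apart.

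The libraries held 22373715 to 34745218 read pairs counted on genes, and levels are given as CPM (counts scaled to a common library total) after TMM scaling, which evens out differences in library make-up and whose factors lay between 0.857 and 1.21. Run identifiers in the names of the files place control replicate 5 and all DOP libraries on 1 flow cell (B), and the other 4 control libraries and all WCOC libraries on another (A). A list of skeletal muscle genes summed to over 5000 CPM in DOP replicates 2, 4 and 5, with 45300 CPM in replicate 5, and to at most 3520 CPM elsewhere. Genes that define adipocytes summed to 13900 to 22000 CPM in every library, which is the labelled tissue. B cell markers were near 0 (at most 6.87 CPM in sum).

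With edgeR's quasi-likelihood test, a gene is said to have risen or fallen when its adjusted p was under 0.05 over all genes and its log2FC was at least 0.58 in size. Between WCOC and C, 4 of the 9 genes fell (CD163, MRC1, CD68 and AIF1) and none rose, against 3.93% of all genes tested that fell by this rule. All 9 had a log2FC below 0, with a median of −1.08, whereas the median of all genes was 0.004. Between DOP and C, 0 of the 9 changed and 7 had a log2FC below 0 (median −0.56, all genes 0.011), where 0.55% of all genes fell. DESeq2 counted 2 of 9 lower there (CD68 and AIF1), limma-voom 0. Over all genes DESeq2 called 518 in that comparison, limma-voom 19 and edgeR 114. Between WCOC and DOP only CD163 fell, where 5.11% of all genes did, and the median of the 9 was −0.47 (all genes 0.001). The comparisons with C share the control libraries.

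At an unadjusted p under 0.05, 5 of the 9 were lower in DOP than in C (7.98% of all genes), 7 lower in WCOC than in C (13.1%) and 3 lower in WCOC than in DOP (15.4%). CSF1 was the only one with such a p on the higher side, in WCOC vs. DOP. The values of the diets did not overlap for AIF1 in DOP vs. C (1.76% of all genes lie wholly lower in DOP) and for CD68 in WCOC vs. C (3.87%). For no member did WCOC lie wholly below DOP, as it did for 4.77% of all genes.

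**Figure D1:**
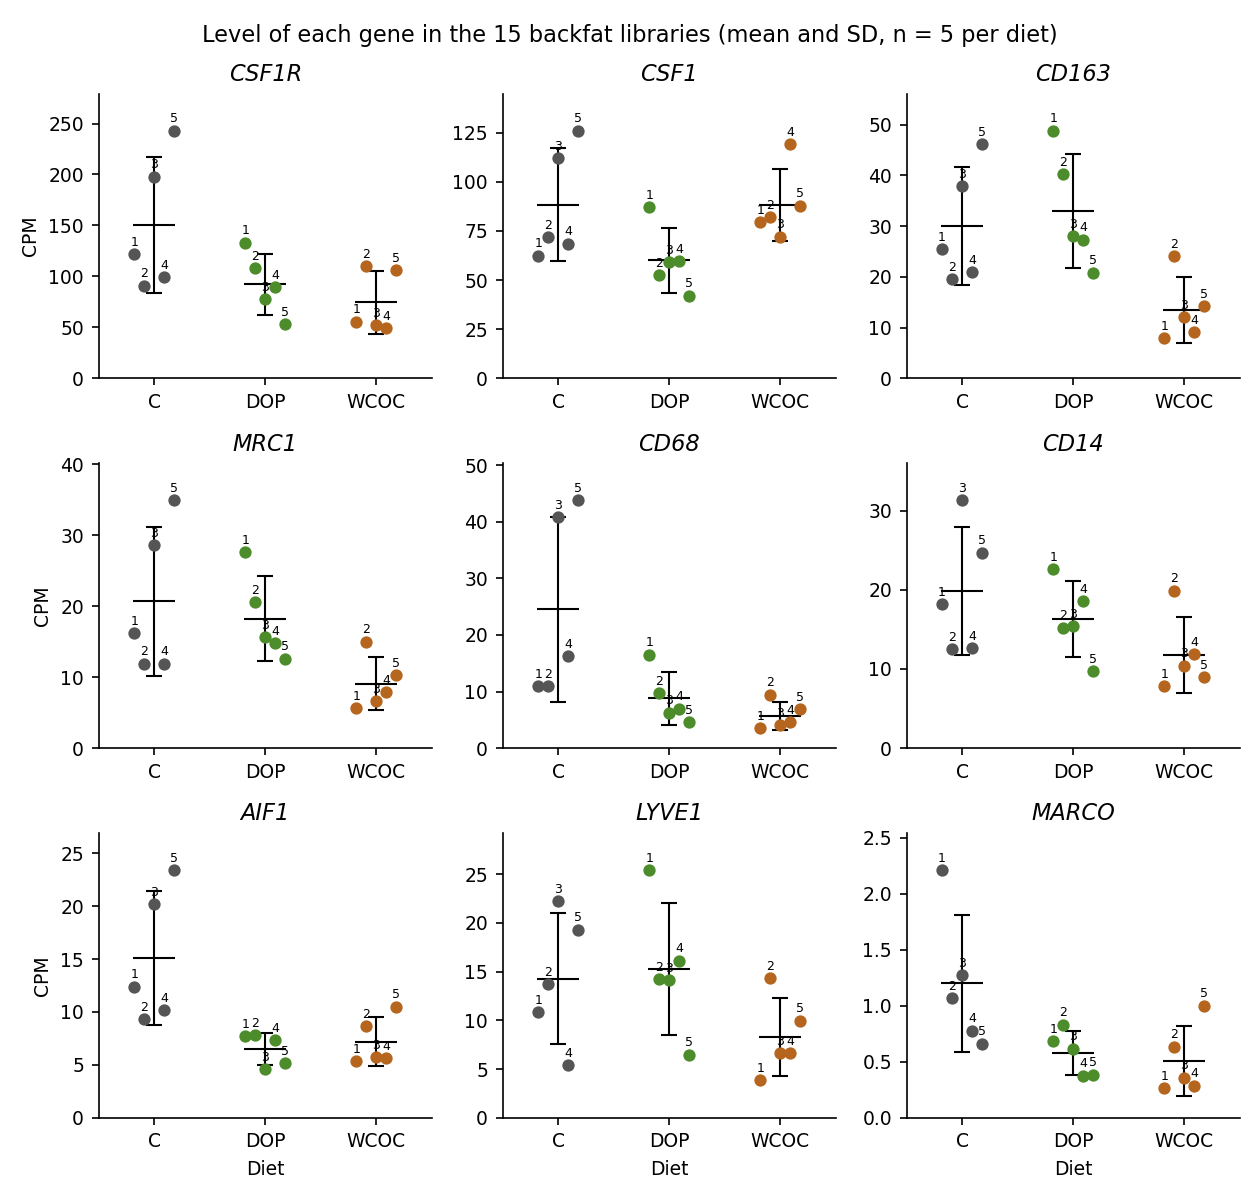
Level of each of the 9 genes (CPM, y axis) by diet (x axis). Each numbered point is 1 library, with its replicate number, and the black bars are the mean and SD of n = 5. In the controls, replicates 3 and 5 stand above the other 3 for 8 of the 9 genes, MARCO being the exception.

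Levels of different genes can be compared only per length. For this the CPM were divided by the exon length of each gene in the RefSeq annotation of Sscrofa11.1. The reads were counted on Ensembl genes, whose exon lengths can differ. Over the 15 libraries the mean was highest for CSF1R (26.3 ± 13.4 CPM per kb, SD, n = 15), followed by CSF1 (16.5 ± 5.14), CD68 (10.6 ± 10.2), CD14 (10.2 ± 4.2) and AIF1 (8.01 ± 4.56). CD163 (6.56 ± 3.31), LYVE1 (4.70 ± 2.38) and MRC1 (3.11 ± 1.65) came next, and MARCO was far lower, at 0.489 ± 0.321 CPM per kb. The order was not that of each diet: CSF1R and CSF1 were equal in WCOC (18.5 CPM per kb each), CD68 (20) was above CSF1 (18.5) in C, and CD68 came after CD14 in DOP (7.18 against 10.4) and in WCOC (4.65 against 7.50). Down to MRC1, neighbours in this order differ by less than the larger of their SDs. CSF1R exceeded CSF1 in 12 of the 15 libraries. CD68 exceeded CD14 in only 4 of 15, with control replicates 3 and 5 far above the rest. MRC1 exceeded MARCO in all 15. MARCO had 8 to 45 counts per library, and the other members had at least 107.

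The 9 genes were placed on the Sscrofa11.1 assembly. CSF1R (ENSSSCG00000014441) lies on chromosome 2 from 151102138 to 151130311 on the minus strand, and its longest transcript has 22 exons. CD14 (ENSSSCG00000014369) lies on the same chromosome and strand from 142348036 to 142349686, and LYVE1 (ENSSSCG00000029886) from 48937357 to 48954206 on the plus strand. CSF1 (ENSSSCG00000037449) is on chromosome 4 from 110178466 to 110198232 (minus), CD163 (ENSSSCG00000033146) on chromosome 5 from 63300200 to 63334497 (plus) and MRC1 (ENSSSCG00000011038) on chromosome 10 from 44107926 to 44226734 (plus). CD68 (ENSSSCG00000017956) is on chromosome 12 from 52874754 to 52877256 (plus), and MARCO (ENSSSCG00000015716) on chromosome 15 from 24502935 to 24541286 (plus). AIF1 (ENSSSCG00000032341) on chromosome 7 from 23711752 to 23731191 (plus) is the only one whose span overlaps other genes, LST1 on the same strand and NCR3 on the other, over 4892 bp in all. This overlap is that of the RefSeq models, while reads were counted on Ensembl genes, whose overlap was not examined. How the authors' counting shared reads there is not given, so the AIF1 counts may be less certain than the rest.

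The 250 bases before the annotated start of 5 of these genes are printed here. Of these, CSF1R, CD163 and MRC1 varied closely together among pigs (r of at least 0.92 in each pair), CD14 varied with them, and CSF1 did so less closely. The printed genes are not those that varied most closely together. AIF1 (r = 0.927) and CD68 (r = 0.911) followed CSF1R more closely than CD14 did (r = 0.749), and their windows are not printed. They are written in the direction of the gene from the RefSeq annotation of Sscrofa11.1. Capitals mark matches on either strand to GAGGAA, the core of sites bound by PU.1, the lineage factor of macrophages encoded by SPI1. TATAAA was searched as well, and the 2 motifs do not overlap each other. MRC1 was added to the set after its matches were seen.
CSF1R, chr2:151130312-151130561, minus strand: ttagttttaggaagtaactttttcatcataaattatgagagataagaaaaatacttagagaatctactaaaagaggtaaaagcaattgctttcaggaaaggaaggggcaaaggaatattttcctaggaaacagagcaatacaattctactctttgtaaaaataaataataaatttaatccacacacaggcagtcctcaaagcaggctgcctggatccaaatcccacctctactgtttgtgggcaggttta
CSF1, chr4:110198233-110198482, minus strand: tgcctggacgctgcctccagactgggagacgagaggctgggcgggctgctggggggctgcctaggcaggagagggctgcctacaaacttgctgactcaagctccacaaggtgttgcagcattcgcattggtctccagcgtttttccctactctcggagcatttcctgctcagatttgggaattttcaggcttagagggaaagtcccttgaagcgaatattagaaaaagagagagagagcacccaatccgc
CD163, chr5:63299950-63300199, plus strand: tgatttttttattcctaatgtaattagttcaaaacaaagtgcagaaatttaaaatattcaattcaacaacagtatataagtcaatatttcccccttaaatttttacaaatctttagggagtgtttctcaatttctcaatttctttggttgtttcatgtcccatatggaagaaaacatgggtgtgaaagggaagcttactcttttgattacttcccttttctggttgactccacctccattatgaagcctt
MRC1, chr10:44107676-44107925, plus strand: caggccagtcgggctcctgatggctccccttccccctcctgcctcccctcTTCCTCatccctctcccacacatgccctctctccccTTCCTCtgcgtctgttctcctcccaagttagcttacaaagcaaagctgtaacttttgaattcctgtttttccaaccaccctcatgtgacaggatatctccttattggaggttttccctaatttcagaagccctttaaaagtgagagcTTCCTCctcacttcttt
CD14, chr2:142349687-142349936, minus strand: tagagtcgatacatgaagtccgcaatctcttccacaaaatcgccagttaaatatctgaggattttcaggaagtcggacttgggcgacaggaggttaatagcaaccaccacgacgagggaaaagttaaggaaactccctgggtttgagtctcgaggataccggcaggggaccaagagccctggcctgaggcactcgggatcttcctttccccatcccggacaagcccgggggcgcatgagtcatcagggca

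The MRC1 window holds 3 matches to GAGGAA, all on the opposite strand, with the base nearest the start 195, 159 and 12 bases before it. Among the other members, AIF1 and LYVE1 hold 1 match each and the remaining 6 hold 0, so 3 of 9 windows hold the motif, beside 22% of 19556 windows of the same length. TATAAA was found in 0 of the 9 and in 9.77% of all. A match is only a run of letters, and its absence from the window says nothing about the factor.

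The receptor CSF1R had 122, 91.0, 198, 99.4 and 243 CPM in control replicates 1 to 5. DOP libraries had 133, 108, 77.5, 89.6 and 53.3 CPM, and WCOC libraries 55.7, 110, 52.4, 49.0 and 106 CPM. Controls 3 and 5 lie above every library of the olive diets, while the other 3 controls lie among them. The log2FC was −1.01 (SE 0.33, adjusted p = 0.0655) in WCOC vs. C and −0.71 (SE 0.33, adjusted p = 0.279) in DOP vs. C, with 95% intervals of −1.71 to −0.31 and −1.41 to −0.01. DESeq2 put the WCOC value past the limit (adjusted p = 0.0154). WCOC and DOP differed by −0.30 (interval −1.0 to 0.39).

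Its ligand CSF1 had another pattern. The controls had 62.5, 71.9, 112, 68.6 and 126 CPM, DOP 87.0, 52.5, 59.2, 59.7 and 42.0 CPM, and WCOC 79.4, 81.9, 72.0, 119 and 87.9 CPM. The mean of WCOC (88.0 ± 18.1 CPM, SD, n = 5) was at that of the controls (88.3 ± 28.8), and DOP was lower at 60.1 ± 16.7. The log2FC was −0.01 in WCOC vs. C, where the interval spans −0.48 to 0.47, −0.56 (SE 0.22, adjusted p = 0.215) in DOP vs. C, and 0.55 (SE 0.22, adjusted p = 0.12) in WCOC vs. DOP. None passed the test.

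The difference between receptor and ligand in a library, as log2 of CSF1R over CSF1 in CPM, averaged 0.72 ± 0.27 in the controls and 0.59 ± 0.27 in DOP, against −0.31 ± 0.69 in WCOC (SD, n = 5). It was above 0 in every C and DOP library, from 0.34 to 1.04. In WCOC it was −0.51, 0.43, −0.46, −1.27 and 0.28, so it was below 0 in 3 of the 5 WCOC libraries. CPM makes no allowance for exon length (4031 bp for CSF1R, 4760 bp for CSF1), so 0 does not mean equal RNA. Per kb, CSF1R exceeded CSF1 in 12 of the 15 libraries. WCOC overlaps the other diets through replicate 2.

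**Figure D2:**
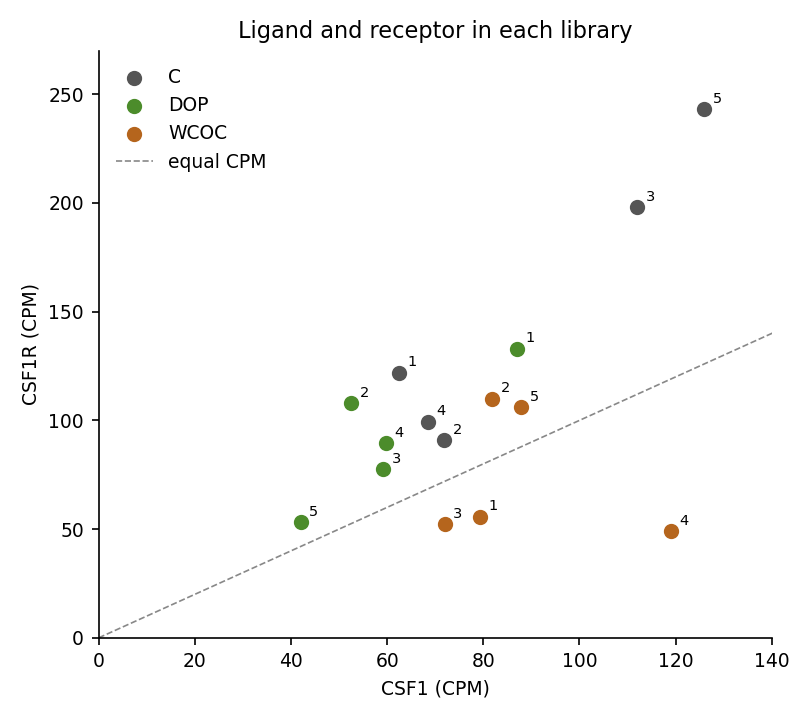
CSF1 (x axis, CPM) against CSF1R (y axis, CPM) in the 15 libraries, each point 1 library with its replicate number and the colour its diet. The dashed line marks equal CPM, below which only WCOC replicates 1, 3 and 4 lie.

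IL34, the other ligand of the receptor, rose in WCOC vs. DOP (log2FC 0.64, SE 0.15, adjusted p = 0.0164; 0.72 and adjusted p = 0.344 with flow cell in the model), with a mean of 76.1 CPM in WCOC, 48.9 in DOP and 60.0 in C. Against C its log2FC was 0.34 (adjusted p = 0.16) in WCOC and −0.30 (adjusted p = 0.323) in DOP. Of the 13 tested genes of CSF1 receptor signalling (IL34, adaptors, SRC family kinases and phosphatases), it was the only one that changed in any comparison by edgeR. Against C, 0 changed in either olive diet, although at an unadjusted p under 0.05 5 of 13 were lower in DOP (7.98% of all genes), and 3 were lower (13.1% of all genes) and IL34 higher in WCOC. DESeq2 called TYROBP lower in both. The median log2FC of the list was −0.24 (DOP) and −0.19 (WCOC) against C, and 0.03 between the olive diets. In WCOC vs. C the list ran from −1.32 (TYROBP, an adaptor of myeloid receptors) to 0.34 (IL34).

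CD163, the scavenger receptor that takes up haemoglobin bound to haptoglobin, was the one member called between the olive diets. Its controls had 25.5, 19.5, 37.9, 20.9 and 46.1 CPM, and DOP had 48.8, 40.2, 28, 27.3 and 20.8 CPM. WCOC had 7.89, 24.1, 12, 9.08 and 14.2 CPM, so that 4 of 5 lie below every library of the other diets and replicate 2 lies among them. CD163 fell 2.23-fold in WCOC vs. C (log2FC −1.16, SE 0.33, adjusted p = 0.0375) and 2.46-fold in WCOC vs. DOP (log2FC −1.30, SE 0.33, adjusted p = 0.0229). In DOP vs. C its log2FC was 0.14 (interval −0.55 to 0.82).

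DOP and WCOC were run on different flow cells, and the difference between them can be freed from the flow cell only through control replicate 5. With flow cell in the model, CD163 in WCOC vs. DOP had a log2FC of −0.47 (adjusted p = 0.761), and only 1 gene of all was called. Within flow cell A, where 4 controls and 5 WCOC libraries can be compared, CD163 had a log2FC of −0.96 (adjusted p = 0.105) in WCOC vs. C. With flow cell in the model, WCOC vs. C rests on these 4 controls too, as it does without control replicate 5. Without the 3 DOP libraries rich in muscle genes, the WCOC vs. DOP value was −1.52 (adjusted p = 0.134).

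MRC1, the mannose receptor known as CD206, followed CD163. It had 16.2, 11.9, 28.6, 11.9 and 34.9 CPM in C, 27.6, 20.6, 15.6, 14.8 and 12.6 in DOP, and 5.60, 15, 6.66, 7.85 and 10.3 in WCOC. Only WCOC replicate 2 reaches into the range of the controls. MRC1 fell 2.28-fold in WCOC vs. C (log2FC −1.19, SE 0.35, adjusted p = 0.0423). In WCOC vs. DOP the log2FC was −1.0 (SE 0.35, adjusted p = 0.0699), which DESeq2 called (adjusted p = 0.0237), and in DOP vs. C it was −0.18 (interval −0.91 to 0.54).

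LYVE1, a receptor for hyaluronan, had mean levels of 14.3 ± 6.69 CPM in C, 15.2 ± 6.76 in DOP and 8.27 ± 3.98 in WCOC (SD, n = 5). By library it had 10.8, 13.7, 22.2, 5.41 and 19.3 CPM in C, 25.4, 14.2, 14.1, 16.1 and 6.48 in DOP, and 3.89, 14.3, 6.63, 6.61 and 9.97 in WCOC. The ranges of the 3 diets overlap, and no comparison passed the test (log2FC −0.79 in WCOC vs. C, adjusted p = 0.234, and −0.88 in WCOC vs. DOP, adjusted p = 0.175). LYVE1 is also a marker of lymphatic vessels. The 5 other lymphatic markers summed to 49.6 to 82.9 CPM in C, 29.1 to 107 in DOP and 23.8 to 53.0 in WCOC, none at 0. Of them, PROX1 and FLT4 fell in WCOC vs. DOP (list median −0.89), where 5.11% of all genes did. For PROX1 and FLT4, DOP was the diet that stood apart. Their log2FC in DOP vs. C was 1.29 (PROX1, adjusted p = 0.078) and 0.83 (FLT4, adjusted p = 0.0944), and DESeq2 called both. In WCOC vs. C it was −0.02 and −0.14. PDPN had −0.31 in DOP vs. C and −0.95 in WCOC vs. C, CCL21 0.29 and −0.60, and RELN 0.25 and −0.25. All 5 markers had a log2FC below 0 in WCOC vs. C. With flow cell in the model, neither PROX1 nor FLT4 was called in WCOC vs. DOP. The list median was 0.29 in DOP vs. C, and 0 of 5 changed in WCOC vs. C by edgeR, DESeq2 or limma-voom (median −0.25, 0 with an unadjusted p under 0.05), with PDPN the most abundant. Their part in the LYVE1 values was not tested.

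CD68, a glycoprotein of lysosomes and the most general macrophage marker of the set, had the log2FC of largest size among the 9 against C in both olive diets. The controls had 10.9, 10.9, 40.8, 16.3 and 43.8 CPM, DOP 16.5, 9.74, 6.24, 6.99 and 4.60, and WCOC 3.50, 9.43, 4.05, 4.61 and 6.90. Every WCOC library lies below every control. CD68 fell 4.31-fold in WCOC vs. C (log2FC −2.11, SE 0.47, adjusted p = 0.0141), and this call held in each of the 15 fits with 1 library left out and within flow cell A (log2FC −1.80, adjusted p = 0.0459). In DOP vs. C the log2FC was −1.48 (SE 0.46, adjusted p = 0.132), where DESeq2 gave an adjusted p of 0.0201. The olive diets differed by −0.63 (interval −1.60 to 0.35).

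AIF1, also called IBA1, is a calcium-binding protein that bundles actin in macrophages. It had 12.4, 9.31, 20.2, 10.2 and 23.4 CPM in C, 7.71, 7.81, 4.60, 7.32 and 5.19 in DOP, and 5.33, 8.69, 5.71, 5.62 and 10.5 in WCOC. All DOP libraries lie below all controls, and WCOC overlaps the controls through replicate 5. AIF1 fell 2.11-fold in WCOC vs. C (log2FC −1.08, SE 0.28, adjusted p = 0.0277). In DOP vs. C the log2FC was −1.21 (SE 0.28) with an adjusted p of 0.0571, which passed the limit with DESeq2 (adjusted p = 0.00162) and without control replicate 1 or 2. The olive diets differed by 0.14 (interval −0.46 to 0.74).

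CD14, the co-receptor that hands bacterial lipopolysaccharide (LPS) to TLR4, had 18.2, 12.5, 31.3, 12.6 and 24.7 CPM in C, 22.6, 15.2, 15.4, 18.6 and 9.73 in DOP, and 7.85, 19.9, 10.4, 11.9 and 8.94 in WCOC. The diets overlap. Its log2FC was −0.76 (SE 0.30, adjusted p = 0.13) in WCOC vs. C, −0.29 (adjusted p = 0.678) in DOP vs. C and −0.47 (adjusted p = 0.343) in WCOC vs. DOP. Of the 9 tested other genes of the LPS receptor complex, 0 changed in any comparison by edgeR. At an unadjusted p under 0.05, 2 were lower against C in DOP (7.98% of all genes) and 1 in WCOC (13.1%). In WCOC vs. DOP 1 was higher at that limit. DESeq2 called TLR2 lower in WCOC vs. C (edgeR log2FC −1.17, adjusted p = 0.0718) and limma-voom called 0. TLR4 itself had a log2FC of −0.17 in DOP vs. C and −0.16 in WCOC vs. C.

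MARCO, a class A scavenger receptor best known from lung and lymphoid macrophages, was close to the limit of detection. It had 2.21, 1.07, 1.27, 0.779 and 0.663 CPM in C, 0.683, 0.830, 0.617, 0.376 and 0.384 in DOP, and 0.262, 0.636, 0.359, 0.286 and 1.00 in WCOC. Here control replicate 1 was the highest of its diet and control replicate 5, the highest control for 6 of the 9 members, was the lowest. The log2FC was −1.21 (SE 0.42, adjusted p = 0.0773) in WCOC vs. C and −1.04 (SE 0.42, adjusted p = 0.214) in DOP vs. C, with 8 to 45 counts per library behind each value. DESeq2 called the WCOC value (adjusted p = 0.0409). With flow cell in the model the DOP value was −0.20 (adjusted p = 0.94).

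**Figure D3:**
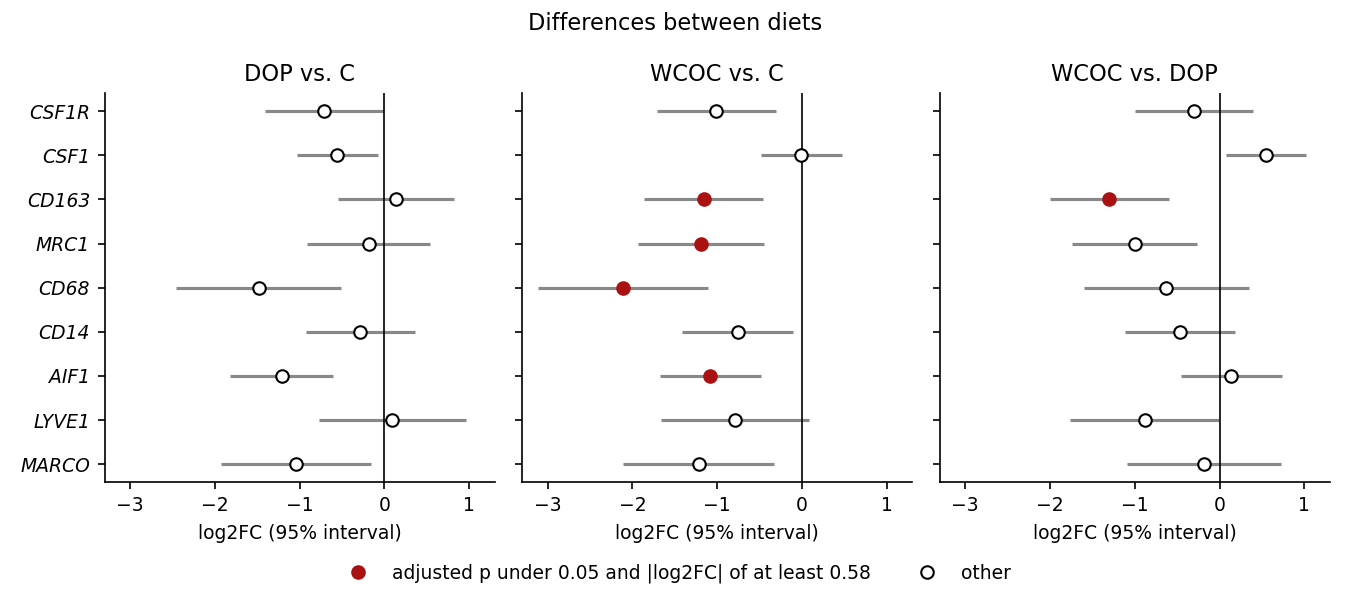
log2FC of the 9 genes (x axis, with 95% interval), 1 panel for each olive diet against C and 1 for WCOC vs. DOP. Red points passed the adjusted p and log2FC limits and white points did not. CD68, AIF1, CSF1R and MARCO lie left of 0 against C in both olive diets, and CD163, MRC1 and LYVE1 lie near 0 in DOP and left of 0 in WCOC in this fit, which has no term for flow cell.

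With flow cell in the model, where control replicate 5 is the one control run together with the DOP libraries, the DOP vs. C values moved. MRC1 had a log2FC of −0.93 (adjusted p = 0.535) in place of −0.18, CD163 of −0.48 and LYVE1 of −0.34. CSF1R had −1.40, CSF1 −1.07, CD68 −2.32 and CD14 −0.60. AIF1 had −1.84 (adjusted p = 0.036), and it was the 1 member called in that fit.

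The calls of CD163, MRC1 and AIF1 in WCOC vs. C were each lost on leaving out any 1 of several pigs, and that of CD68 was not. Control replicate 3 was among the 2 highest controls for 9 of 9 members and replicate 5 for 8 of 9. Without control replicate 3, or without control replicate 5, 1 of the 9 genes was called in place of 4, namely CD68, and the same count followed without WCOC replicate 1, 3 or 4. Without WCOC replicate 2, which was the highest WCOC library for 6 of 9 members, 6 were called. With flow cell in the model or within flow cell A, 1 was called (CD68). Both fits set the same 4 controls against WCOC as the fit without control replicate 5, so these are not separate checks. The log2FC of CD163, MRC1 and AIF1 stayed between −1.48 and −0.86 in the fits with 1 library of the compared diets left out. In DOP, replicate 1 was highest for 7 of 9 members and replicate 5, the library with 45300 CPM of muscle genes, lowest for 7 of 9. Without the 3 muscle-rich libraries, AIF1 in DOP vs. C had a log2FC of −1.30 and CD68 one of −1.12, and 0 of 9 genes were called. The part of the muscle RNA in these values was not tested.

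Within a diet the members varied together from pig to pig. Correlations were computed on log2 CPM centred within diets over the 15 libraries, with permutation within diets and Benjamini-Hochberg adjustment over the 36 pairs, and 26 pairs passed. Of the 21 pairs without CSF1 and MARCO, 21 passed, with Pearson's r from 0.664 to 0.95 and Spearman's rho from 0.643 to 0.875. CD163 with MRC1 had the highest r (r = 0.95, adjusted permutation p = 0.00048, rho = 0.871, adjusted permutation p = 0.0045, r = 0.927 without the 2 libraries farthest from the median). CSF1R followed MRC1 (r = 0.931), AIF1 (r = 0.927) and CD163 (r = 0.92). In the 9 libraries of flow cell A alone these 21 pairs had r from 0.649 to 0.964. Flow cell B holds 5 DOP libraries and 1 control, too few for values of its own.

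CSF1 went with the others less closely: 5 of its 7 pairs outside MARCO passed, with r from 0.516 (CD163) to 0.761 (CD68), and without the 2 outermost libraries r ran from 0.261 to 0.603. In flow cell A its r lay between 0.172 and 0.592. The 8 pairs with MARCO gave r from −0.139 to 0.436, and 0 of 8 passed. All pairs share libraries, and so their depth and scaling.

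**Figure D4:**
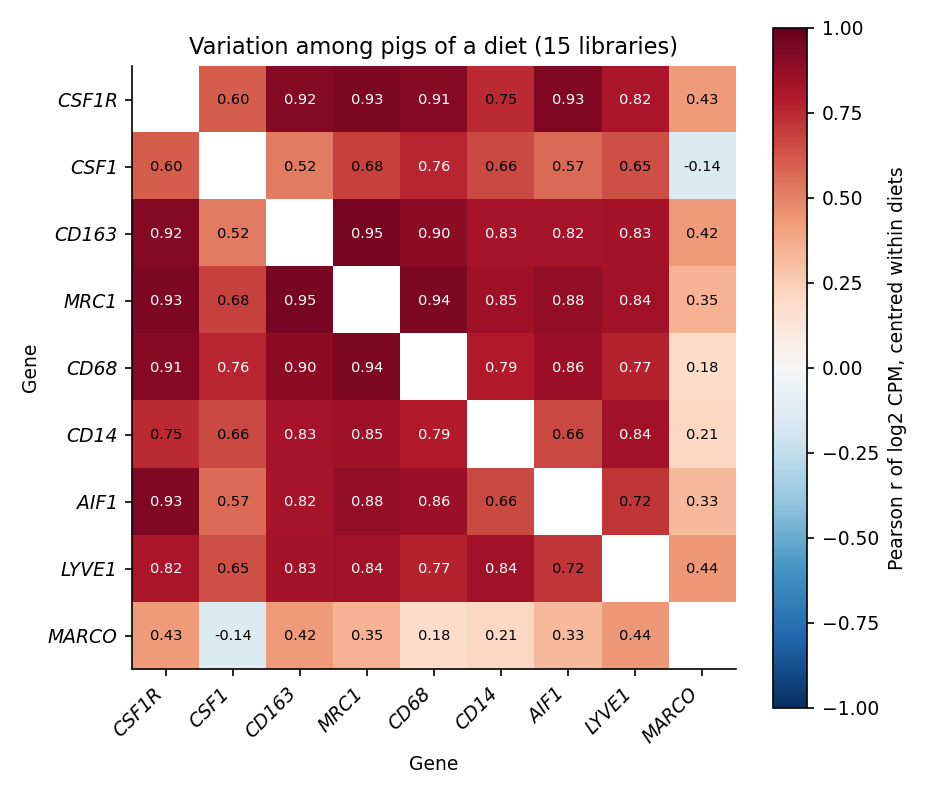
Pearson's r between each pair of the 9 genes (rows and columns), from log2 CPM centred within diets over 15 libraries, with the value printed in each cell. The block without CSF1 and MARCO runs from 0.66 to 0.95, and the MARCO row is pale.

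The genes whose pattern among pigs was most like that of CSF1R, out of 11132 with a symbol and a mean of at least 1 CPM, were FCER1G (r = 0.965), TYROBP (0.96), CYTH4 (0.957), BCL2A1 (0.953) and RASGRP4 (0.952), over 15 libraries centred within diets. FCER1G and TYROBP encode small adaptor proteins of immune receptors in myeloid cells. For CSF1 the first 3 were NAB2 (r = 0.93), CORO7 (0.927) and GPNMB (0.927). None of the genes named here is shared between receptor and ligand. These values were picked as the highest of many and are a description.

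Of 17 tested genes of a further macrophage list, 5 fell in WCOC vs. C (MSR1, CD209, CTSS, VSIG4 and STAB1; median log2FC −1.21, all 17 below 0), 2 in DOP vs. C (median −0.38) and 2 in WCOC vs. DOP (median −0.55). In WCOC vs. C the largest falls were MSR1, a class A scavenger receptor related to MARCO (log2FC −2.68, adjusted p = 0.0175), and CD209, a lectin (log2FC −1.80, adjusted p = 0.0158). MSR1 (log2FC −3.18, adjusted p = 0.0397) and CTSS, a lysosomal protease (log2FC −1.78, adjusted p = 0.0367), fell in DOP vs. C. In WCOC vs. DOP the falls were CD209 (log2FC −1.49, adjusted p = 0.0312) and STAB1, a scavenger receptor (log2FC −0.86, adjusted p = 0.0116). Of all genes, 3.93% fell in WCOC vs. C, 0.55% in DOP vs. C and 5.11% in WCOC vs. DOP. In WCOC vs. C the calls of VSIG4 and STAB1 were lost without control replicate 3 or 5, and that of MSR1 without WCOC replicate 1. Those of CD209 and CTSS held with any 1 library of these diets left out.

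Of 10 tested transcription factors of macrophages, 3 fell in WCOC vs. C: TFEC (log2FC −1.32, adjusted p = 0.0254), SPI1 (log2FC −1.28, adjusted p = 0.0408) and RUNX1. These 3 calls were lost without control replicate 3 or 5. They were lost with flow cell in the model and within flow cell A, which rest on the same controls as without replicate 5. The list had a median of −0.30 in WCOC vs. C. In DOP vs. C 0 changed by edgeR, and 5 were lower at an unadjusted p under 0.05 (7.98% of all genes). DESeq2 called SPI1 and TFEC lower there (SPI1 log2FC −1.43, edgeR adjusted p = 0.082). The median was −0.18 in DOP vs. C and −0.04 in WCOC vs. DOP. MAF, which drives scavenger receptor genes in macrophages, fell in WCOC vs. DOP (log2FC −1.07, adjusted p = 0.0209). Of 7 genes of haem and iron handling, SLC11A1, an iron and manganese exporter of phagosomes, fell against C in DOP (log2FC −3.09, adjusted p = 0.0277) and in WCOC (log2FC −2.03, adjusted p = 0.0173). BLVRB and TFRC fell in WCOC vs. DOP (log2FC −0.59 and −1.06), and the list medians were −0.12 (DOP) and −0.24 (WCOC) against C. Of 5 hyaluronan genes, CD44, another hyaluronan receptor, fell in WCOC vs. C (log2FC −0.58, adjusted p = 0.0322, list median −0.19). Of all genes, 3.93% fell in WCOC vs. C, 0.55% in DOP vs. C and 5.11% in WCOC vs. DOP. A single call in a list this short says little about the list.

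Genes of lipid-associated macrophages, which gather around dying fat cells, had a log2FC below 0 against C for 6 of 7 genes in DOP and 7 of 7 in WCOC. Of the 7, 3 fell in DOP vs. C (SPP1, GPNMB and LGALS3; median log2FC −2.38) and 4 in WCOC vs. C (these and TREM2; median −1.79), CTSD being the most abundant. The 4 calls in WCOC vs. C were lost without control replicate 3 or 5. They were lost with flow cell in the model and within flow cell A, which rest on the same controls as without replicate 5. In WCOC vs. DOP 0 of the 7 changed by edgeR (median 0.41, 1 of 7 higher at an unadjusted p under 0.05), and DESeq2 called SPP1 higher. Of 4 tested genes of osteoclast-like giant cells, 3 fell in DOP vs. C (OCSTAMP, DCSTAMP and MMP9; median −3.89) and 3 in WCOC vs. C (ACP5, OCSTAMP and DCSTAMP; median −2.36), MMP9 being the most abundant. In WCOC vs. DOP 0 of these 4 changed by edgeR, DESeq2 or limma-voom (median 1.34). At an unadjusted p under 0.05, 1 was lower and 1 higher. Of all genes, 0.55% fell in DOP vs. C and 3.93% in WCOC vs. C. The lipid-associated and giant cell lists were chosen with earlier results of these data known. The paper names SPP1, OCSTAMP and MMP9 among its largest falls with DOP, so the falls of these lists are no independent result. The DOP vs. C calls of these lists, of MSR1 and CTSS, of SLC11A1 and of KIT were all lost without control replicate 3 or 5. They were also lost without DOP replicate 2, 3, 4 or 5. Without the 3 muscle-rich libraries they were lost too, and 0 of all genes were called in that comparison. With flow cell in the model 9 of these 10 calls held, all but KIT. That fit sets the DOP libraries against control replicate 5 alone, which had the highest giant cell sum (96.1 CPM). It is thus no check free of that library. The matched giant cell genes summed to 10.5 to 96.1 CPM in C, 2.06 to 12.5 in DOP and 4.99 to 28.5 in WCOC. The 9 resident genes summed to 242 to 562, 155 to 370 and 169 to 284 CPM in these diets.

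**Figure D5:**
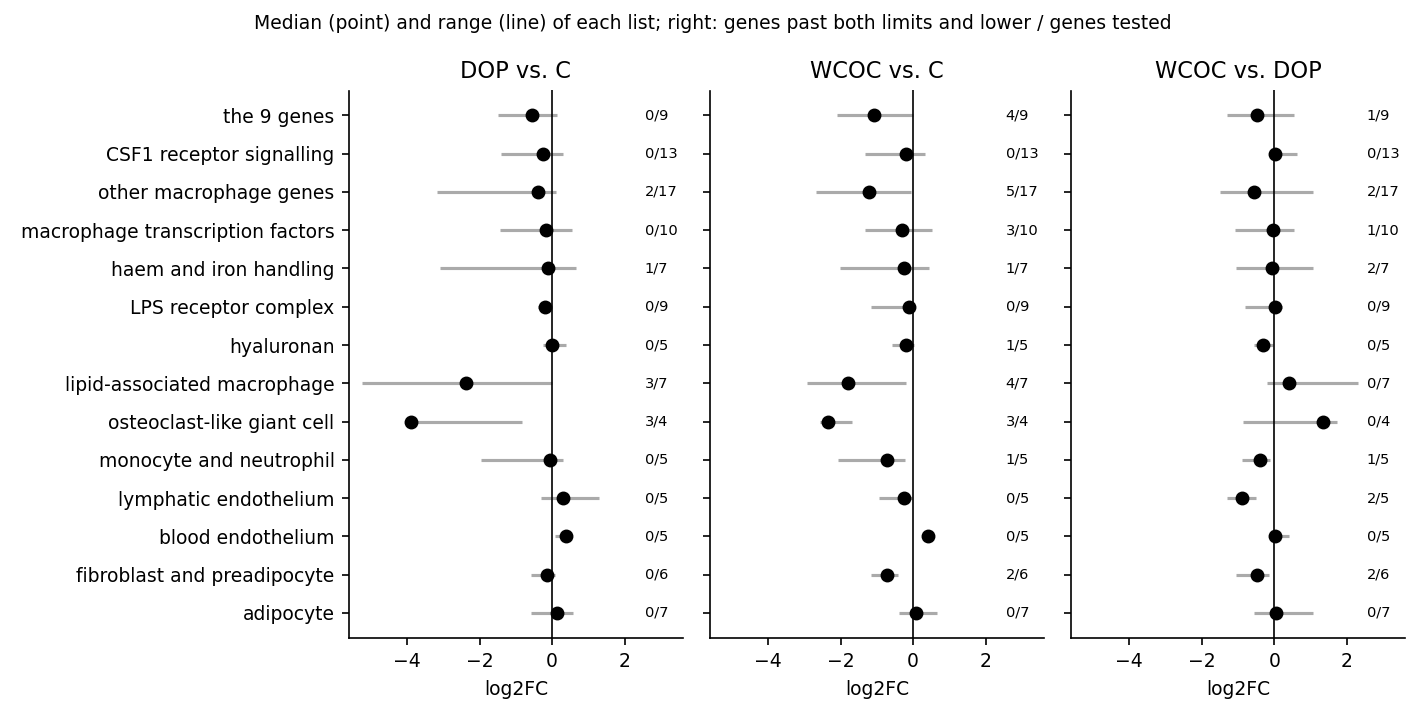
Median log2FC (point) and range over the tested genes (line) of 14 gene lists in the 3 comparisons, x axis log2FC. The numbers at the right of each panel count the genes that fell out of those tested. The 9 genes have medians of −0.56, −1.08 and −0.47 in the 3 panels, and the lipid-associated list −2.38, −1.79 and 0.41.

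Some markers of other cell types also fell in WCOC. Of all genes, 3.93% fell in WCOC vs. C and 5.11% in WCOC vs. DOP. Of 6 fibroblast and preadipocyte genes, 2 fell in WCOC vs. C (LUM and COL1A1; median −0.72) and 2 in WCOC vs. DOP (LUM and PDGFRA; median −0.48). Their sums were 7040 to 12300 CPM in C, 5290 to 9510 in DOP and 2450 to 7320 in WCOC, none at 0, and COL1A1 was the most abundant. Of 5 monocyte and neutrophil genes, VCAN, the most abundant and also made by fibroblasts, fell in WCOC vs. C (list median −0.71) and in WCOC vs. DOP (−0.39). All 4 tested cell division genes fell in WCOC vs. C (median −2.42) and in WCOC vs. DOP (median −1.94), with TOP2A (log2FC −2.55 and −2.33) and CCNB1 (−2.46 and −1.91) among them.

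Of 7 adipocyte genes, ADIPOQ, the most abundant, rose in WCOC vs. C and LEP in WCOC vs. DOP (list medians 0.07 and 0.06). Among the 14918 genes tested, 32 rose in DOP vs. C, 347 in WCOC vs. C and 396 in WCOC vs. DOP. In blood endothelium (PECAM1 most abundant), 0 of 5 genes changed by edgeR, DESeq2 or limma-voom in any comparison. The medians were 0.37 in DOP and 0.42 in WCOC against C, and 3 and 4 genes were higher at an unadjusted p under 0.05. In either direction, 2623 and 3931 of the 14918 genes tested had such a p against C. Of these, 1191 (DOP) and 1958 (WCOC) were lower and the rest higher. In T cells (CD2 most abundant), 0 of 4 changed by any of the 3 tools, 0 had an unadjusted p under 0.05, and the medians were 0.05 and 0.06. Of 4 dendritic cell genes XCR1 fell in WCOC vs. C (list median −0.02, ZBTB46 most abundant). Of 3 mast cell genes (MS4A2 most abundant) KIT rose against C in DOP (list median 0.61) and WCOC (−0.67), and HDC fell in WCOC vs. DOP (−0.71). KRT1, 1 of 3 epidermis genes, rose in WCOC vs. DOP (list median 2.83, KRT10 most abundant). The epidermis sum had a lower median in WCOC (3.79 CPM, highest 137) than in DOP (4.23 CPM, highest 7.69), and the call was lost without WCOC replicate 5 or any 1 DOP library. TNNT3, TNNC2 and MYL1, of 5 skeletal muscle genes, fell there (list median −5.87, ACTA1 most abundant). The part of these cell types in the values of the 9 genes was not tested. Of the 27 list genes called in WCOC vs. C, 13 were called with flow cell in the model and 8 within flow cell A. In every fit with 1 library of these diets left out, 10 were called (CD209, CTSS, ACP5, VCAN, KIT, LUM and the 4 cell division genes). Those lost with flow cell in the model were VSIG4, STAB1, SPI1, RUNX1, TFEC, CD44, TREM2, SPP1, GPNMB, LGALS3, OCSTAMP, DCSTAMP, XCR1 and COL1A1. They were also lost within flow cell A and without control replicate 3 or 5. Of these fits, those with flow cell, within flow cell A and without replicate 5 rest on the same 4 controls. Of the 21 called in WCOC vs. DOP, IL34 among them, 0 were called with flow cell in the model, and 3 without the muscle-rich libraries (TOP2A, BUB1 and CCNB1).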

How the data were processed

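RNA of 15 backfat biopsies (C, DOP and WCOC, 5 pigs each) was sequenced as 1 library per pig. The deposited files hold raw counts per Ensembl gene, which the authors made with HISAT2 on Sscrofa11.1 and HTSeq, neither normalized nor pooled. Tool versions, the annotation release and the strand option of the counting are not given in the sources used here. The 5 summary lines of each file (23.4% to 32.8% of read pairs) stayed out of library sizes and tests.

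The analysis used edgeR 4.0.16 (R 4.3.3): filterByExpr (14918 of 30477 genes kept), TMM scaling and 1 quasi-likelihood fit with a mean for each diet (15 libraries, common dispersion 0.0814). Tests were two-sided with Benjamini-Hochberg adjustment, and calls needed both an adjusted p below 0.05 and an absolute log2FC of 0.58 or more, the limits of the study. Intervals are 95% and come from the unshrunk coefficients. Log2 CPM used a prior count of 1, and pair correlations 100000 permutations within diets. Libraries of a diet differed by more than sampling noise (chi-square per degree of freedom at least 44.5). The labels do not tie replicate numbers across diets, and of 15 correlations between same-numbered libraries (−0.495 to 0.345) only 3 were over 0.1.

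Alternatives were DESeq2 1.42.0 with its size factors, limma-voom (limma 3.58.1), TMM without muscle and the 50 most abundant genes, other filters, fits on 2 diets, the replicate block, flow cell, and each library left out. A fit without the 3 muscle-rich DOP libraries was added after the data were seen. The workflow was tested on simulated data. The 9 genes and the 21 lists (the 9 among them) were chosen with earlier results of these data known. Named genes were the 9 members, up to 2 largest rises and falls of each list that is no cell type list, with a mean of at least 1 CPM, and the most abundant member of cell type lists. Genes named beside these were chosen after their values were seen. The rule for genes most like CSF1R and CSF1 took 5 each, and for CSF1 not all of them are reported here. Genes were matched to symbols by Ensembl ID, and positions, exon lengths and sequences are those of RefSeq for Sscrofa11.1, the build of the files.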

Additional observations from a re-analysis of the deposited data

Results flagged for a closer look

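CD163 was the only one of the 9 genes whose response differed between the olive diets by edgeR's test of the difference itself, the WCOC vs. DOP contrast (log2FC −1.30, edgeR adjusted p = 0.0229). DESeq2 called MRC1 there as well (adjusted p = 0.0237). The mean level was 30.0 CPM in the controls, 33.0 CPM with DOP and 13.5 CPM with WCOC. The contrast lost the call without DOP replicate 2 and without WCOC replicate 1, 3 or 4 (adjusted p up to 0.0567), and with flow cell in the model. In the 27 groups of 5 libraries (9 genes in 3 diets), Dixon's test at its 95% limit of 0.71 marked 0 single libraries. It looks for 1 value apart from the rest and cannot mark 2 high libraries that lie close together. Control replicates 3 and 5 lay so for CD68, at 40.8 and 43.8 CPM, with the other controls at 10.9 to 16.3 CPM.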

How the results depend on the processing

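Of the results for single genes, the size factors of DESeq2 and TMM without muscle genes moved no call and no direction. In WCOC vs. C, 4 members were called. DESeq2 called 6 (CSF1R and MARCO added), limma-voom 4 and the fit with only these diets 2. With flow cell as a covariate 1 was called, and within flow cell A 1, both resting on the same 4 controls. With a library left out, 1 to 6 were called. With the replicate block 0 were (CD68 adjusted p = 0.0573), though the numbers do not pair the pigs. How many of all genes DESeq2 and limma-voom called in WCOC vs. C is not given here. The replicate block took the counts of genes to 0 in DOP vs. C, 473 in WCOC vs. C and 561 in WCOC vs. DOP and left CD163 called in the last (adjusted p = 0.0488). In DOP vs. C, 0 members were called, and 2 with DESeq2, 1 with flow cell as a covariate and 0 to 1 with a library left out. In WCOC vs. DOP, 1 was called, and 2 with DESeq2, 0 with flow cell as a covariate, 0 without the muscle-rich DOP libraries and 0 to 2 with a library left out.

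The count of genes in DOP vs. C (114) was 518 with DESeq2, 19 with limma-voom, 2 with only these diets, 0 without the muscle-rich libraries and 0 to 200 with a library left out, the 0 being reached without C replicate 3 or 5 and without DOP replicate 2 or 4. In WCOC vs. C (933) it was 486 within flow cell A, 1493 without the log2FC limit and 468 to 1163 with a library left out. In WCOC vs. DOP (1158) it was 1 with flow cell as a covariate, 80 without the muscle-rich libraries, 1842 without the log2FC limit and 639 to 1291 with a library left out. The same 26 pairs passed with DESeq2's size factors and with a prior count of 5.

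Directions turned only for values near 0 or under the flow cell term. With flow cell as a covariate, CD163 (−0.48) and LYVE1 (−0.34) in DOP vs. C, CSF1 in WCOC vs. C (0.16), and CSF1R (0.62), MRC1 (0.02) and CD68 (0.52) in WCOC vs. DOP changed sign. CSF1 in WCOC vs. C was 0.04 with limma-voom and 0.15 within flow cell A, and MRC1 in DOP vs. C 0.06 without the muscle-rich libraries. With a library left out, DOP vs. C ran from −0.05 to 0.34 for CD163, −0.39 to 0.09 for MRC1 and −0.17 to 0.30 for LYVE1, CSF1 in WCOC vs. C from −0.13 to 0.16 and AIF1 in WCOC vs. DOP from −0.04 to 0.23. The cause was not tested, other than that fits with fewer libraries have less power by construction.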
